A study of Homo sapiens with 12 samples.

Results

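The genes described here encode cadherins, protocadherins, claudins and other proteins that join cells at the plasma membrane, and their transcripts were measured in MCF-10A cells. A gene was included when the enrichment table deposited for MCF-10A listed it under cell-cell adhesion via plasma membrane molecules or under the homophilic form of that process, or when it was a protein-coding gene of the MCF-10A expression table with a symbol starting in PCDH, CDH or CLDN. These rules gave 38 genes of the 2680 listed for MCF-10A, and of the 3090 listed for any cell line. The wider adhesion term held all 38, the homophilic term held 32 of them, and 29 had a symbol of the given form. Because the expression table lists only genes that differed between transited and control cells, the 38 were chosen by the same contrast that their values are shown for, and those values, with the calls and the interval given beside some of them, are a description and no independent test. The table stopped at a deposited p-value of 0.05, and the genes just inside that limit were PCDH15 with 0.0496, PCDHGA11 with 0.0461 and CLDN4 with 0.0434. Genes outside the limit have no entry and therefore no value.

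The study asked how squeezing through a capillary-sized channel changes gene expression in breast cell lines. MDA-MB-231 is a metastatic breast cancer line, LM2 is its variant selected for lung metastasis, and MCF-10A is an immortalised breast epithelial line that does not form tumours. In the constriction groups, cells were pushed through microfluidic channels 5 µm wide, 5 µm high and 150 µm long under 7 to 33 cmH2O of hydrostatic pressure and collected after transit. In the control groups, cells of the same line did not transit. No further treatment is named for these libraries. Each group had 2 libraries, which gave 12 in all, and RNA was sequenced from whole populations of cells. Cultured lines pushed through a plain channel lack blood, vessel wall and neighbouring tissue, which limits them as a model of capillary transit. The reads behind the MCF-10A values numbered 29978695 and 35494737 in constriction replicates 1 and 2, and 36123663 and 46436989 in control replicates 1 and 2. A normalised count, the read count divided by a scaling factor of its library, is used to compare libraries, and FPKM, which also divides by gene length, is used to compare genes. Detection at this depth was limited to 3 reads per library, which equals a normalised count of 3.62 and 3.11 in constriction replicates 1 and 2.

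Classical cadherins and desmogleins join neighbouring epithelial cells through calcium-dependent binding at adherens junctions and desmosomes, whereas claudins seal the space between cells at tight junctions. Clustered protocadherins are encoded in tandem arrays of variable exons, each with a promoter of its own, and they are best known in neurons, where random promoter choice gives each cell a combination of surface proteins used for self-recognition. Breast epithelium relies on classical cadherins, desmosomes and claudins for its barrier, and loss of epithelial junctions is a familiar feature of cells that become motile.

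In MCF-10A, 37 of the 38 adhesion genes were lower on average after transit, as were 94.5% of all listed genes. The constriction and control libraries did not overlap for 37 of the 38, against 96.8% of listed genes. An edgeR fit to all 2680 genes called 36 of the 38, all of them lower after transit, at an adjusted p-value under 0.05, while 95.3% of listed genes were called. Nothing is read from these shares, because the list itself was formed on this contrast. The 2 genes not called were CLDN4 and PCDHGB7. With a block for the replicate number, since each replicate experiment had its own control, edgeR called 35, including CLDN4 but not PCDHB10, PCDHB2 or PCDHGB7, and 86.9% of all listed genes. Leaving out control replicate 1 reduced the calls to 20, and leaving out control replicate 2 reduced them to 24. Under those same fits the calls over all listed genes fell to 1786 and 1606.

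Zero reads in both constriction libraries were recorded for 35 of the 38 genes, and for 2402 of the 2680 listed genes, or 89.6%. The exceptions were CLDN4, PCDHGB7 and PCDHB2. In bulk RNA, fewer cells expressing a gene and less RNA per cell cannot be told apart, and a count of 0 here sets only an upper limit. None of the 38 genes was at 0 in both control libraries, as 23 listed genes were. The median log2 fold change was -4.40 over the 38 and -4.05 over all listed genes, computed with a pseudocount of 1. With genes at 0 placed at their limit of 3 reads per library, the medians were -2.58 and -2.27. The median over the 38 was -3.20 without control replicate 1 and -4.78 without control replicate 2.

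Low expression in the control cells was shared by nearly all of the 38. Their median FPKM in the control libraries was 0.116, against 0.251 over all listed genes and 0.158 over the listed protein-coding genes. The order differed for normalised counts, which are not divided by gene length. The median control normalised count was 22.2 over the 38, 16.6 over all listed genes and 20.4 over the protein-coding ones. Median gene length was 4963.5, 2348 and 3966 bases, respectively. The highest mean control FPKM, 14.4, belonged to CLDN4, and the lowest, 0.0163, to PCDH15. A mean normalised count of at least 10 over the 4 libraries was reached by 21 of the 38. Reads of the 38 genes summed to 4349 and 3536 in the control libraries and to 1436 and 450 in the constriction libraries. Without CLDN4 the sums were 1760 and 575 in the control libraries and 617 and 23 in the constriction libraries. After PCDHGB7 was also set aside, 36 genes remained, with 1724 and 562 control reads and with 0 and 2 constriction reads. The plot of every gene by library shows these patterns side by side.

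**Figure D1:**
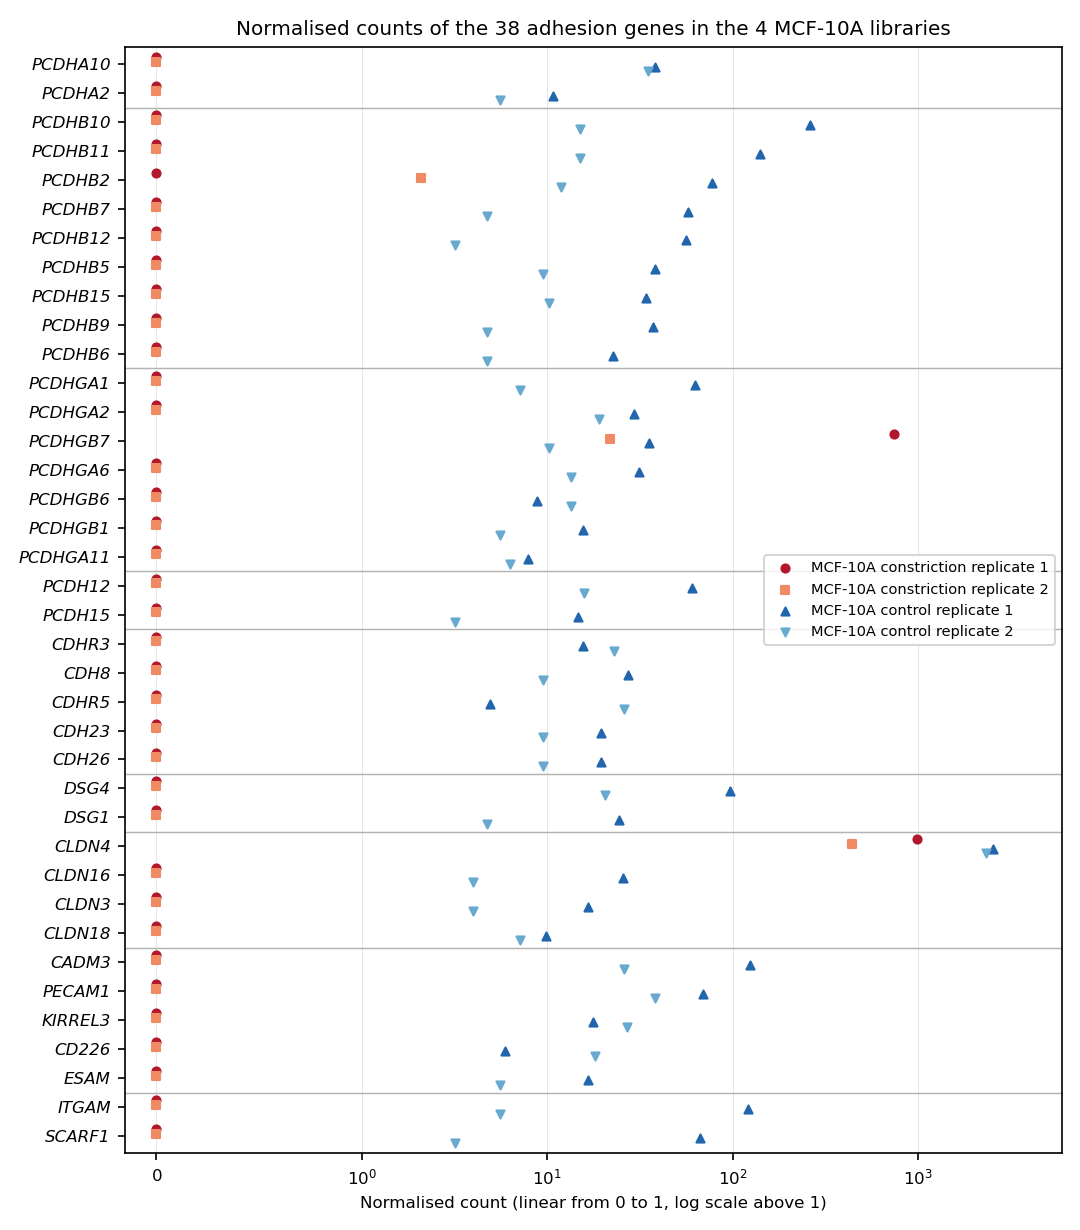
Normalised counts (horizontal axis, linear from 0 to 1 and logarithmic above) of the 38 adhesion genes (vertical axis, grouped by family) in the 4 MCF-10A libraries, with 1 point per gene and library. In both constriction libraries 35 genes sit at 0, and CLDN4 lies between 442 and 2535 in all 4 libraries.

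CLDN4 encodes a claudin of epithelial tight junctions that affects which ions pass between cells, and it was the most abundant of the 38 genes. It had 819 and 427 reads in constriction replicates 1 and 2, and 2589 and 2961 reads in control replicates 1 and 2. Both constriction libraries lay below both control libraries. Its mean normalised count was 715 ± 386 (SD, n = 2) in the constriction group. In the control group it was 2436 ± 139 (SD, n = 2). On the FPKM scale the libraries measured 5.81 and 2.56 after transit and 15.2 and 13.6 in controls. The log2 fold change was -1.77, and it was -2.46 without constriction replicate 1 and -1.30 without constriction replicate 2. Its call depended on the setting, and nothing is read from it. DESeq2 and limma called CLDN4, as did edgeR with the replicate block, without constriction replicate 1 or with genes of low mean count left out. With all libraries edgeR did not call it, nor did it with TMM factors, with adjustment over all annotated genes, or without constriction replicate 2, control replicate 1 or control replicate 2.

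The other 3 listed claudins had few reads. CLDN16, which renal tubules use for magnesium reabsorption, had 26 and 5 control reads and 0 reads in both constriction libraries. CLDN3, a sealing claudin of epithelia, and CLDN18, a claudin of stomach and lung, had between 5 and 17 control reads per library and none after transit. The annotation holds 24 protein-coding claudins, of which 4 were listed, against 5.96% of all annotated protein-coding genes. That share applies beside every later count of listed genes in a family or list, and nothing is read from such a count. Of 36 tight junction genes considered, 5 were listed, and the only listed gene of that set outside the 38 was CGNL1, which encodes a junctional adaptor. CGNL1 had 29 and 3 control reads and 0 reads in both constriction libraries. The summed FPKM of the listed tight junction genes was 16.0 and 13.7 in the control libraries and 5.81 and 2.56 in the constriction libraries, all of the latter from CLDN4.

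Clustered protocadherins made up 18 of the 38 genes. Their 3 neighbouring gene clusters, alpha, beta and gamma, span chr5:140786136-141512981 of GRCh38 on the plus strand, where the annotation places 53 protein-coding protocadherin genes. Every listed gene that lies wholly within this stretch, 18 in number, was a protocadherin. By cluster, 2 of 15 alpha genes, 9 of 16 beta genes and 7 of 22 gamma genes were listed, where 5.96% of all annotated protein-coding genes were, and nothing is read from these counts because listing chose the genes. Because the promoter of each variable exon decides which protocadherin a cell makes, promoter sequences of 300 bases, from 250 before to 50 after each gene start, are shown for the leading gene of each cluster. They come from RefSeq on GRCh38.p14, which held a window for 16 of the 18 clustered genes and for 31 of the 38 in all. The genes without a window were CDHR5, DSG4, ESAM, PCDHB11, PCDHB6, PECAM1 and SCARF1. Capitals mark the letters CGCT or their reverse complement AGCG and the letters TATAAA, and in PCDHB10 the 10-base word described after them. In PCDHGB7, CGCT on each strand overlaps, which gives a capital run of 6 bases.
PCDHB10, chr5:141192103-141192402, plus strand: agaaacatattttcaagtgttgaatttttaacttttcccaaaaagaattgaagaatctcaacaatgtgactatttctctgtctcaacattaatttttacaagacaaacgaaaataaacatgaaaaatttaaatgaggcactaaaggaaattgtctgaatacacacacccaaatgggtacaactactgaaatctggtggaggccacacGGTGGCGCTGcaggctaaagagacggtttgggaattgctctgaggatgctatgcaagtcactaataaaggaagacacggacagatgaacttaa
PCDHGB7, chr5:141417427-141417726, plus strand: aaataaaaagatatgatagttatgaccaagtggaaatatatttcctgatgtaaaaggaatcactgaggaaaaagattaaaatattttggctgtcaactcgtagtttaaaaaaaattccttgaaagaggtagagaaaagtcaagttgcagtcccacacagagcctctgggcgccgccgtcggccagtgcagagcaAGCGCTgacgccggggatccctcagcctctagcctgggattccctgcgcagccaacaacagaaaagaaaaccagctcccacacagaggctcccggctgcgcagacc
PCDHA10, chr5:140855647-140855946, plus strand: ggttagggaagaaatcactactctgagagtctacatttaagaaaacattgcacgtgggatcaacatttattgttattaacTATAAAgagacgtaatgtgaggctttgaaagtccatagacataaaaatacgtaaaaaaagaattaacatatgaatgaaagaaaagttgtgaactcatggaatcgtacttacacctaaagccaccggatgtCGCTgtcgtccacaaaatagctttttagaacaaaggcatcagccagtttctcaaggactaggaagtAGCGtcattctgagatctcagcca

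CGCT is the core of a conserved element known from promoters of clustered protocadherins, and it was searched on both strands together with AGGGGGC, part of the motif bound by the insulator protein CTCF, CAGGTG, an E-box bound by SNAI and ZEB repressors, and TATAAA. None of these 4 words contains another. CGCT was found in the windows of 16 of 16 clustered genes of the list, but so short a word also occurred in 70.0% of all 35116 windows. AGGGGGC was found in 0 of the 16, against 14.4% of all windows. CAGGTG was present in 3 of 7 gamma genes and in 0 of the 2 alpha and 0 of the 7 beta genes, against 20.6% of all windows. TATAAA occurred in 1 of 2 alpha, 1 of 7 beta and 1 of 7 gamma genes, against 11.5% of all windows. The median GC content was 38% in the beta windows, 35.8% in the alpha windows and 47.3% in the gamma windows, against 58.7% over all windows. The cluster medians thus lay below that of all windows, but single gamma windows ranged from 36% to 65%.

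For each cluster, the 10-base word held by the windows of the most genes was then taken. All genes of the cluster were counted, not only the listed ones. Between words held by equally many genes, those with CGCT were preferred. The length of the word and this preference were chosen after word counts had been seen. A high share within a cluster follows from the selection, so nothing is read from its contrast with all windows. In the beta cluster the word was GGTGGCGCTG, which 12 of 14 beta genes with a window carried, including 7 of the 7 listed ones, while 0.276% of all windows did. GCGCCGCTGT was the word of the gamma cluster, carried by 9 of 20 genes and by 3 of the 7 listed ones, against 0.131% of all windows. In the alpha cluster TGATGTCGCT was carried by 8 of 13 genes and by 1 of the 2 listed ones, against 0.0342% of all windows. Each of these words contains CGCT, so the 2 searches overlap, and a match is a description of the letters and not of a bound site. The 40 bases around the word are given so that the listed genes can be compared, with the word in capitals, in the order beta, gamma, alpha.
PCDHB2, chr5:141094540-141094579, plus strand: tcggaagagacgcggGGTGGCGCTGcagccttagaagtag
PCDHB5, chr5:141135175-141135214, plus strand: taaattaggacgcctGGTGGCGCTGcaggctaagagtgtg
PCDHB7, chr5:141172562-141172601, plus strand: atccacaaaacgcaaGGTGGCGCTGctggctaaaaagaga
PCDHB9, chr5:141187070-141187109, plus strand: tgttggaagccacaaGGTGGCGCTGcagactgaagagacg
PCDHB10, chr5:141192295-141192334, plus strand: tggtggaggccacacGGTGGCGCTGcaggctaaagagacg
PCDHB12, chr5:141208639-141208678, plus strand: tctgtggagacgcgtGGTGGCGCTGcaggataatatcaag
PCDHB15, chr5:141245310-141245349, plus strand: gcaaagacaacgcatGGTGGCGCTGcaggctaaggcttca
PCDHGA1, chr5:141330400-141330439, plus strand: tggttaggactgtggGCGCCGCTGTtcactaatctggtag
PCDHGB1, chr5:141350022-141350061, plus strand: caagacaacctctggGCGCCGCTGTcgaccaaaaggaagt
PCDHGB6, chr5:141407921-141407960, plus strand: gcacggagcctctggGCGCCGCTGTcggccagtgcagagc
PCDHA2, chr5:140794776-140794815, plus strand: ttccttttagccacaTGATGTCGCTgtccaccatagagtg

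The beta cluster gave the largest group, and each beta protocadherin is a single-exon gene for a homophilic adhesion protein. PCDHB10, the gene at the head of the promoters shown, had 268 and 19 reads in control replicates 1 and 2 and 0 reads in both constriction libraries. PCDHB11 had 143 and 19 control reads and 0 reads after transit. For PCDHB2 there were 79 and 15 control reads, and 0 and 2 reads in constriction replicates 1 and 2. All 3 were lower in both constriction libraries, but control replicate 1 held most of their reads. For PCDHB10 the control normalised count averaged 139 ± 175 (SD, n = 2), a spread larger than the mean. PCDHB10 was at least 41.3-fold lower after transit, a bound that became 4.46 without control replicate 1 and 78.1 without control replicate 2. PCDHB2, with 2 reads against 94, had a ratio of 36.9 of control to constriction, with an exact 95% interval from 9.93 to 309. Its constriction reads lay under the detection limit of 3 per library, so only the lower ends of the intervals given for it are read. Without control replicate 1 the ratio for PCDHB2 was 10.6, from 2.47 to 95.8, and without control replicate 2 it was 69.4, from 18.6 to 583. Without constriction replicate 1, it was 19.8, from 5.34 to 166. The edgeR calls of PCDHB10 and PCDHB2 were lost with the replicate block.

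Further beta genes followed the same division between the control libraries. PCDHB7 had 59 and 6 control reads, PCDHB12 had 57 and 4, and both had 0 reads in each constriction library. PCDHB5 had 39 and 12 control reads and 0 in both constriction libraries. PCDHB9 had 38 and 6 control reads and 0 in both constriction libraries. These were all higher in control replicate 1. PCDHB15 had 35 and 13 control reads and 0 in both constriction libraries. PCDHB6, the least abundant of the 9, stayed below 25 reads in every library. All 9 beta genes had a higher normalised count in control replicate 1 than in control replicate 2, by a median ratio of 6.66 and a range from 3.13 to 16.5. Here and elsewhere, ratios between the control libraries were taken after 1 was added to each normalised count, which lowers them for small counts. In 6 of the 9 the control libraries were over 5-fold apart. Over the 9 genes the reads summed to 741 and 100 in the control libraries and to 0 and 2 in the constriction libraries.

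Gamma protocadherins share constant exons at the end of the cluster, joined to a variable exon that each gene contributes. PCDHGB7 was the only gene of the 38 with a higher mean after transit, with 617 and 21 reads in constriction replicates 1 and 2 and 36 and 13 reads in control replicates 1 and 2. Its groups overlapped, since constriction replicate 2 lay between the controls once normalised, at 21.7 against 35.2 and 10.3. Constriction replicate 1 alone, at a normalised count of 744, set the group mean of 383 ± 511 (SD, n = 2). The log2 fold change of PCDHGB7 was 4.01 with all libraries, 1.47 when TMM factors of the listed genes replaced the size factors, and -0.063 without constriction replicate 1. With all libraries, neither edgeR nor limma called PCDHGB7, while DESeq2 did, and edgeR called it once constriction replicate 2 was left out.

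No other gamma gene of the list had a read after transit. PCDHGA1 had 64 and 9 control reads and 0 reads in both constriction libraries. PCDHGA2 had 30 and 24 control reads and 0 in both constriction libraries. PCDHGA6 had 32 and 17 control reads and 0 in both constriction libraries. PCDHGA1 was unequal between the controls, whereas PCDHGA2 was nearly even. PCDHGB6 and PCDHGA11, which flank PCDHGB7 among the listed genes, had at most 17 control reads in a library and 0 reads in constriction replicate 1, the library in which PCDHGB7 had 617. Together with PCDHGB1, they had between 7 and 17 reads per control library. Reads of the 7 gamma genes summed to 195 and 95 in the control libraries and to 617 and 21 in the constriction libraries.

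Alpha protocadherins, organised like the gamma genes, contributed PCDHA10 and PCDHA2. PCDHA10 had 39 and 44 control reads and 0 reads in both constriction libraries, and after CLDN4 its control libraries were the closest to each other in the list. Its normalised count in controls averaged 36.5 ± 2.43 (SD, n = 2). PCDHA10 was at least 10.8-fold lower after transit, a bound of 10.3 without control replicate 1 and 11.4 without control replicate 2, so it did not rest on a single control library. PCDHA2 had no more than 11 reads in any library. In the order along the chromosome, PCDHB9, PCDHB10, PCDHB11 and PCDHB12 follow each other with no unlisted protein-coding gene between them, and PCDHB10 and PCDHB11 had the most control reads of all clustered genes listed.

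**Figure D2:**
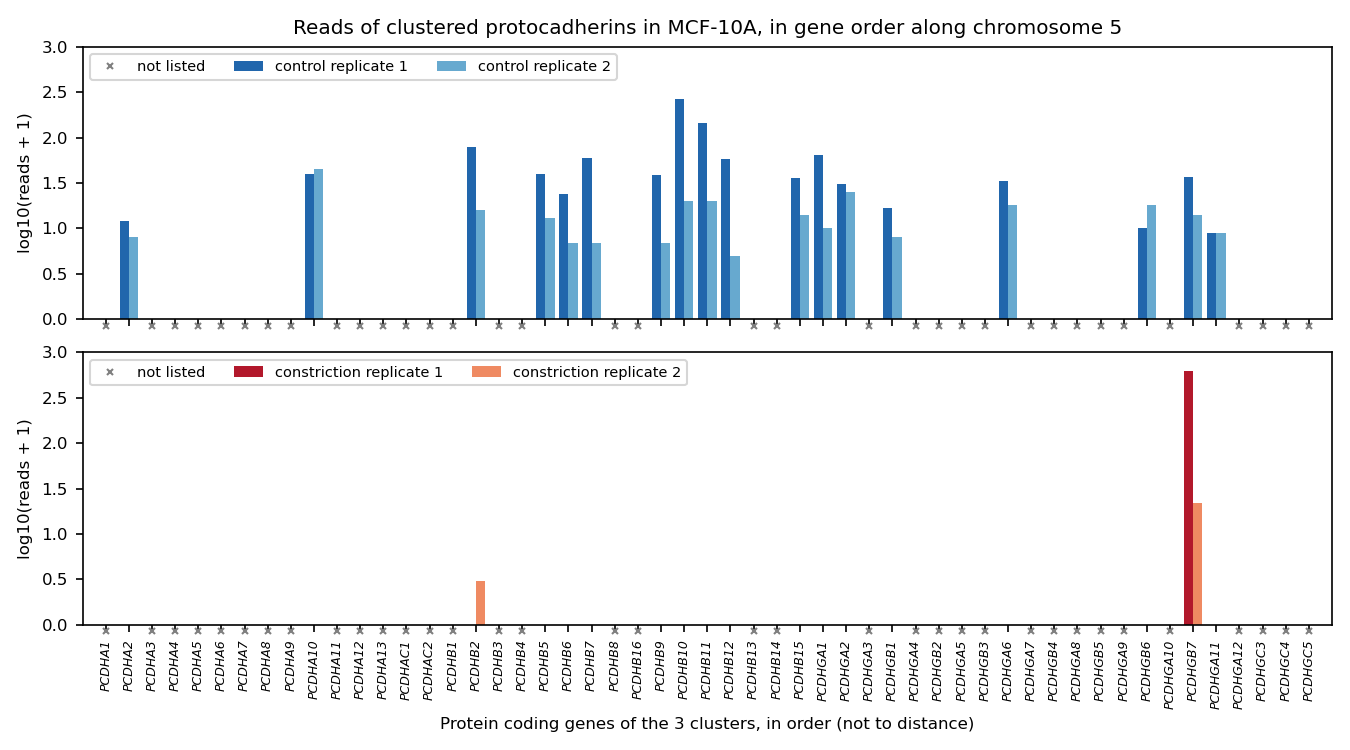
Reads, as log10(reads + 1), of the 53 protein-coding clustered protocadherins in their order along chromosome 5, with bars for the control libraries (upper panel) and the constriction libraries (lower panel). Crosses mark genes that the table does not list, and PCDHGB7 has the only tall bars in the lower panel, with 617 and 21 reads.

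Sequence shared between cluster members limits how far reads can be assigned to a single gene. All 150-base windows of the longest transcript of each gene were looked up in the transcripts of other genes. The share found unchanged was between 0.359% and 55.2% for the gamma genes, with a median of 45.3%. The low values were those of PCDHGB6, at 0.359%, and PCDHGA6, at 1.29%. Shorter transcripts of the same gene were not looked up, so these shares can understate the sharing. For PCDHGB7 the share was 44.5%. Shares for alpha genes were 20.0% and 53.3%, and for beta genes they ranged from 0% to 18.0% with a median of 8.97%. Among genes outside the clusters, CADM3 had 22.2%, CDH23 had 0.00911%, and the remaining ones had 0%. How reads from shared exons were assigned was not stated, and its part in the counts was not tested.

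Protocadherins outside the clusters were PCDH12, a vascular endothelial protocadherin, and PCDH15, which forms the tip links of sensory hair cells with CDH23. PCDH12 had 62 and 20 control reads and 0 reads in both constriction libraries. PCDH15 had 15 and 4 control reads and 0 reads in both constriction libraries, the latter close to the limit of the table. Both were lower after transit in each library, and 2 of 13 such protocadherins in the annotation were listed, against 5.96% of all annotated protein-coding genes.

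Cadherins and cadherin-related genes numbered 5 of 28 in the annotation, where 5.96% of all annotated protein-coding genes were listed. Nothing is read from that count, and no classical epithelial cadherin was among the 5. CDHR3, an airway protein that rhinovirus C uses as its receptor, had 16 and 29 control reads and 0 in both constriction libraries. CDH8, a type II cadherin of neurons, had 28 and 12 control reads and 0 in both constriction libraries. CDHR5, a mucin-like cadherin that links microvilli of the brush border, had 5 and 33 control reads and 0 in both constriction libraries. CDHR3 and CDHR5 were higher in control replicate 2, unlike most of the 38. CDH23 and CDH26, the latter an epithelial cadherin, had between 12 and 20 control reads per library and none after transit. Of 25 adherens junction genes considered, including CDH1, CDH2, CDH3 and the catenins, 1 was listed, JCAD, which encodes a junctional protein of endothelium. JCAD had 5 and 14 control reads and 0 reads in both constriction libraries. A gene that was not listed has no value here, so its level is unknown and not shown to be unchanged.

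Desmosomal cadherins were represented by DSG4 and DSG1, 2 of the 4 desmogleins, where 5.96% of all annotated protein-coding genes were listed. DSG4, a desmoglein of the hair follicle, had 99 and 26 control reads and 0 reads in both constriction libraries. DSG1, a desmoglein of the upper epidermis, had between 6 and 25 control reads per library and none after transit. Both were higher in control replicate 1. These were also the only listed genes among 12 desmosome genes considered, with a summed FPKM of 0.715 and 0.144 in the control libraries.

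Adhesion molecules of the immunoglobulin superfamily made up 5 of the 38. PECAM1, which joins endothelial cells and is also found on platelets and leukocytes, had 71 and 48 control reads and 0 in both constriction libraries. CADM3, a nectin-like molecule of neurons, had 127 and 33 control reads and 0 in both constriction libraries. KIRREL3, a nephrin-like molecule of kidney and synapses, had 18 and 34 control reads and 0 in both constriction libraries. All 3 were above the detection limit in both controls. PECAM1 was at least 16.0-fold lower after transit, a bound of 11.3 without control replicate 1 and 20.7 without control replicate 2. ESAM, an endothelial junction protein, and CD226, an activating receptor of T and natural killer cells, stayed between 6 and 23 control reads per library. Of 36 immunoglobulin adhesion molecules considered, 6 were listed, the sixth being CEACAM6 with 87 and 100 control reads and 0 and 3 reads in constriction replicates 1 and 2.

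The remaining 2 genes entered through the adhesion term alone. ITGAM, the integrin alpha subunit of macrophages and neutrophils, had 124 and 7 control reads and 0 in both constriction libraries. SCARF1, a scavenger receptor first found on endothelium, had 68 and 4 control reads and 0 in both constriction libraries. Their control libraries were the 2 most unequal pairs outside the protocadherins, with ratios of 18.8 and 16.2 after 1 was added to each normalised count. Of 26 integrin genes considered, 2 were listed, the other being ITGB7 with 34 and 23 control reads and 0 reads in both constriction libraries.

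The spread between the 2 control libraries was wide over the list. Control replicate 1 exceeded control replicate 2 in 33 of the 38, against 55.6% of all listed genes and 66.6% of the listed protein-coding genes. With 1 added to each normalised count, the median ratio of control replicate 1 to control replicate 2 was 3.17 over the 38, 1.13 over all listed genes and 1.52 over the protein-coding ones. By the same ratio, the control libraries were over 5-fold apart in 10 of the 38, against 9.89% of listed genes and 15.7% of protein-coding ones. With nothing added to the counts, the number was 12 of the 38, with CDHR5 and DSG1 as the additional genes. Over the 38 genes, which share the same 2 libraries and are not independent of each other, the Spearman correlation between the control libraries was 0.204, and it was 0.383 over all 2680. The plot of the controls against each other shows PCDHB10, ITGAM and SCARF1 farthest above the line of equality. The MCF-10A samples of both groups, control and constriction, were also prepared from unequal cell concentrations and gave unequal amounts of RNA. In each group replicate 1 had the higher concentration and the larger amount. The part of this in the ratios, and in the reads after transit, was not tested.

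**Figure D3:**
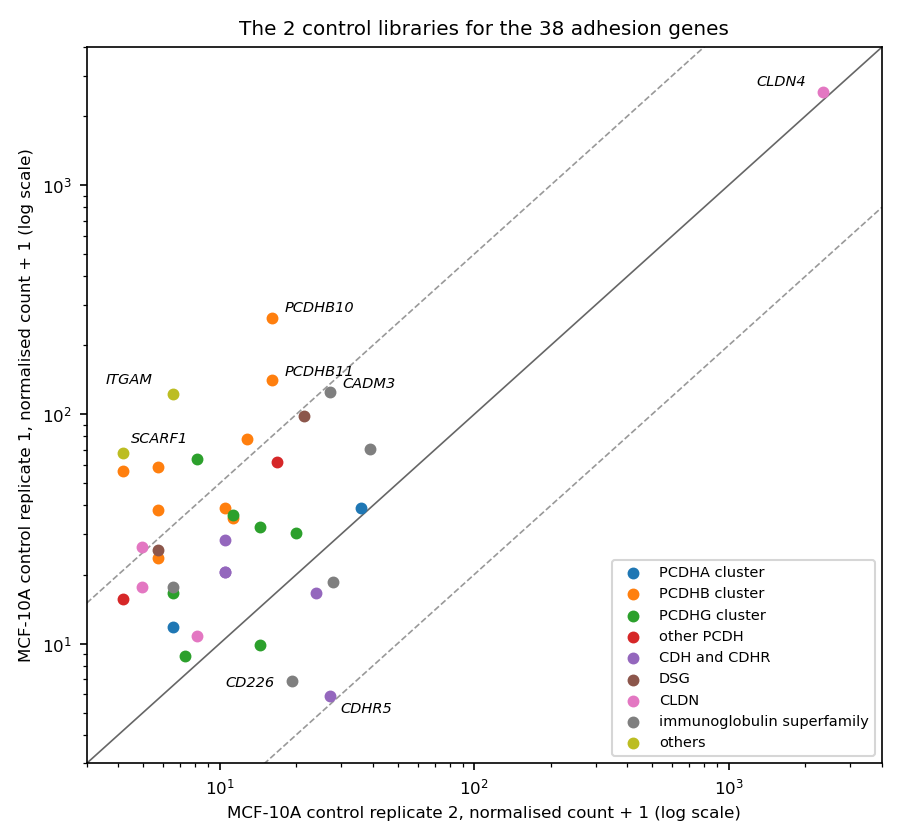
Normalised count + 1 of the 38 adhesion genes in control replicate 1 (vertical axis, log scale) against control replicate 2 (horizontal axis, log scale), with 1 point per gene coloured by family. The solid line marks equality and the dashed lines a 5-fold ratio, and 33 of the 38 points lie above the solid line.

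For the 35 genes with no read after transit, the fold change is a lower bound, computed against 3 reads in each constriction library. The bounds ranged from 2.10 to 41.3 with a median of 6.24. Without control replicate 1, the range was 1.17 to 11.3 with a median of 2.82 over 32 genes, and PCDH15, PCDHB12 and SCARF1 fell to the limit and had no bound. Without control replicate 2, it was 1.46 to 78.1 with a median of 8.16 over all 35.

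**Figure D4:**
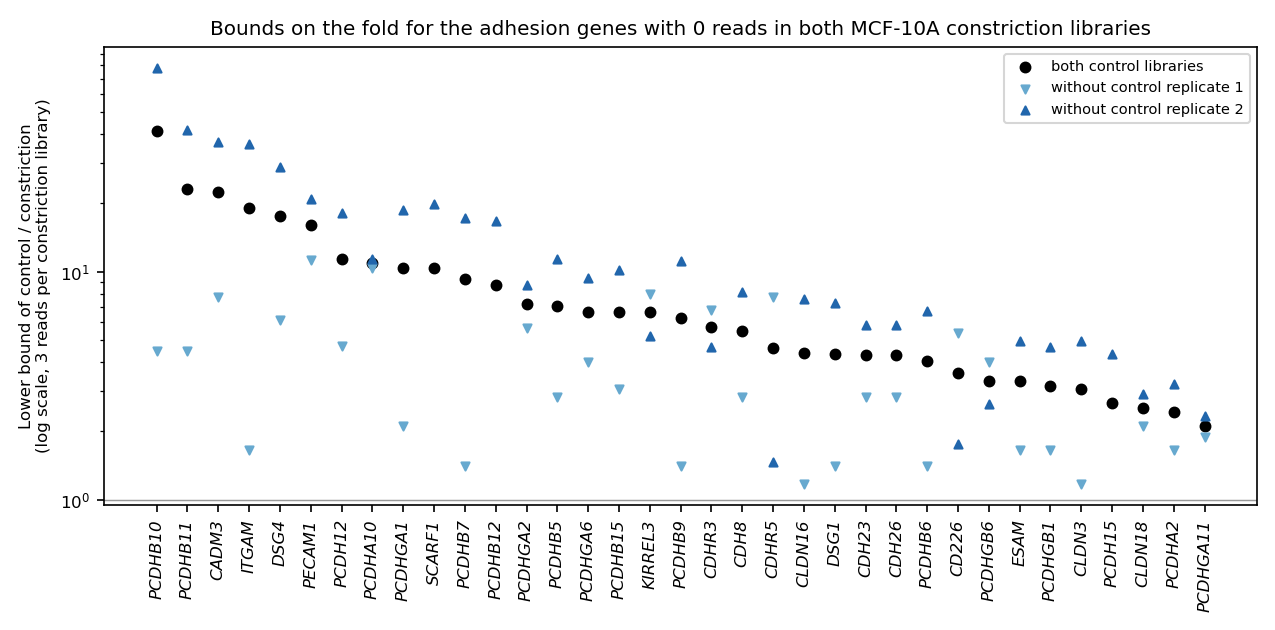
Lower bound of the ratio of control to constriction (vertical axis, log scale) for the 35 adhesion genes with 0 reads in both constriction libraries (horizontal axis), with both control libraries and with each left out. Bounds without control replicate 1 reach 11.3 at most, and those with both control libraries reach 41.3.

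In the other cell lines, CDHR5 was the only gene of the 38 with an entry, and that was in MDA-MB-231. There it had 63 and 78 reads in constriction replicates 1 and 2 and 9 and 31 reads in control replicates 1 and 2. Both constriction libraries lay above both control libraries, with a log2 fold change of 1.76 that was 1.29 without control replicate 1 and 2.45 without control replicate 2. In MCF-10A, CDHR5 went the opposite way, from 5 and 33 control reads to 0 in both constriction libraries, and the difference between the cell lines was not tested because their tables were normalised separately. None of the 38 was listed in LM2.

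**Figure D5:**
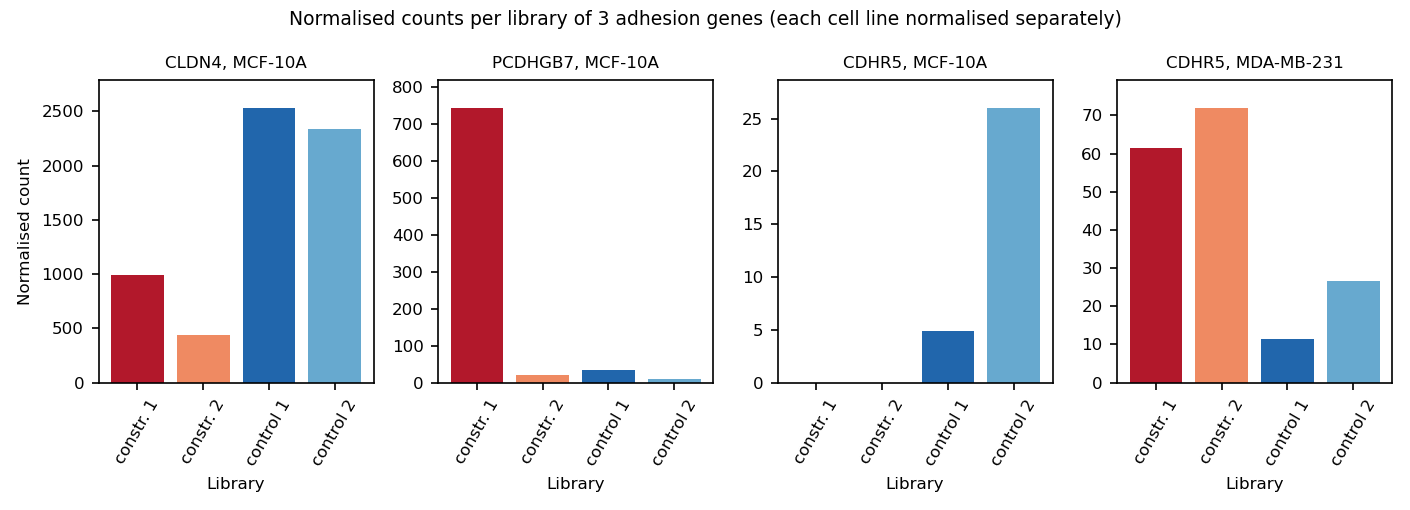
Normalised counts (vertical axes, starting at 0) in each library for CLDN4, PCDHGB7 and CDHR5 in MCF-10A and for CDHR5 in MDA-MB-231. CLDN4 is lower in both constriction libraries, PCDHGB7 is high in constriction replicate 1 alone, and CDHR5 is lower after transit in MCF-10A and higher in MDA-MB-231.

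Other genes of the cadherin and protocadherin families were listed in MDA-MB-231. PCDHGA5, a gamma protocadherin, had 150 and 337 constriction reads and 74 and 149 control reads. PCDHGA8, from the same cluster, had 46 and 60 constriction reads and 9 and 19 control reads. The pseudogene PCDHB18P, which lies in the beta cluster, had 30 and 85 constriction reads and 7 and 21 control reads. These 3 were higher in both constriction libraries once normalised. The giant cadherins FAT4 and FAT1, which act in planar polarity and growth control, had log2 fold changes of 0.64 and 0.47, and CDH24, a type II cadherin, had one of -0.48. With CDHR5, this made 7 genes of these families in MDA-MB-231, of which 6 were higher and 1 was lower after transit. Of all 381 genes listed for MDA-MB-231, 66.7% were higher after transit, and nothing is read from so small a count. None of 10 giant cadherin genes considered was listed in MCF-10A.

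Regulators and markers related to these genes were looked up in the same table, in which only listed genes have a level. None of 14 protocadherin cluster regulators, such as CTCF, the cohesin subunits and SMCHD1, was listed in MCF-10A. Of 18 regulators and markers of epithelial-mesenchymal transition, 3 were listed, all with 0 reads in both constriction libraries. OVOL1, a repressor that maintains epithelial identity, had 162 and 72 control reads. TGFB3, a growth factor, had 50 and 60 control reads, and SNAI1, a repressor of CDH1, had 5 and 38. CDH1, VIM, ZEB1 and ZEB2 were not listed in MCF-10A.

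Since several of the 38 are best known from leukocytes, endothelium or neurons, markers of those cells were counted as well. Of 16 leukocyte markers 2 were listed, ITGAM and CD226, with a summed FPKM of 0.616 and 0.0628 in the control libraries and 0 in the constriction libraries, and ITGAM was the most abundant. Of 12 endothelial markers 3 were listed, PECAM1, ESAM and PCDH12, with a summed FPKM of 0.666 and 0.248 in controls and 0 after transit, led by PECAM1. All of these 5 are themselves among the 38, so their counts and summed FPKM repeat the adhesion genes and nothing is read from them. No leukocyte or endothelial marker outside the 38 was listed. The defining markers PTPRC, CDH5, VWF and KDR were not listed, so their levels are unknown. Of 11 neuronal markers 2 were listed, TUBB3 with 8 and 20 control reads and RBFOX3 with 11 and 6, and both had 0 reads after transit. Their summed FPKM was 0.0808 and 0.110 in controls. Of 8 fibroblast markers 1 was listed, PDGFRB, with 22 and 22 control reads, a summed FPKM of 0.0853 and 0.0664, and 0 reads after transit. Of 8 luminal breast markers 1 was listed, KRT19, with 5 and 21 control reads, a summed FPKM of 0.0593 and 0.194, and 0 reads after transit. None of 8 basal breast markers was listed, so the labelled cell type could not be checked against them. The part of other cells in the counts of the adhesion genes was not tested.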

How the data were processed

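RNA was measured in 12 libraries, 2 for each of 6 groups, and the 4 MCF-10A libraries carry the comparison. The authors filtered reads with fastp, aligned them to GRCh38 with HISAT2 2.0.5 and counted them per gene with featureCounts 1.5.0-p3, which gave the deposited counts. The deposited signal is the count divided by a DESeq2 1.20.0 size factor computed within a cell line. The deposited FPKM was computed by the authors from counts and gene length. The deposited p-value of the authors' DESeq2 comparison was read to find the limit of the MCF-10A table, where all lay under 0.05. Their fold changes and adjusted p-values were not used. Whether the libraries keep the strand was not stated. Protein identity within clusters was planned but not computed, since the reference files used held no protein table. The paper's methods give 2 replicate experiments per cell line.

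Identifiers, starts and ends of all 2680 genes matched GENCODE release 29. The size factors of the MCF-10A libraries, recovered from counts and signal, were 0.830 and 0.966 for constriction and 1.02 and 1.27 for control. The total reads were recovered from counts, FPKM and gene lengths. The whole table was fitted with the quasi-likelihood test of edgeR 4.0.16 with these factors, two-sided, with Benjamini-Hochberg adjustment over 2680 genes, and calls were made below an adjusted value of 0.05. Only listed genes could enter the fit. The fit was tested on simulated data. Log2 fold changes and ratios between control libraries use normalised counts with a pseudocount of 1. Where both constriction libraries had 0 reads, the ratio was bounded with 3 reads per library. The interval for PCDHB2 is an exact Clopper-Pearson interval at 95%, and intervals and floors cover counting error only.

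The members and lists were chosen with earlier results of these data known. Values in every library were given for the 25 members with the highest mean normalised count, for members with a read in a constriction library and for members listed in another cell line. PCDH15 was added as nearest to the limit, and groups, family ranges and list genes of up to 3 per list follow the same plan. Alternatives were DESeq2 1.42.0, limma 3.58.1 with pseudocounts of 1, 0.5 and 10, TMM factors, a minimum mean of 10, a replicate block, adjustment over 58780 annotated genes, and each library left out. The crossed block, the bounded median, the count without genes whose controls were over 5-fold apart, the ratio of controls with no pseudocount, and the alternatives for CLDN4, PCDHGB7 and PCDHB2 were chosen after seeing the data. Deviations of libraries with the same replicate number from their group means correlated at -0.0427 over 2680 genes. Over the 1209 with a mean of at least 10, the correlation was -0.110. Since 89.6% of the 2680 genes had 0 reads in both constriction libraries, most deviations in that group were 0. These correlations therefore cannot decide whether replicates were paired.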

Additional observations from a re-analysis of the deposited data

Results flagged for a closer look

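CDHR5 moved in opposite directions in 2 cell lines. Its log2 fold change was 1.76 in MDA-MB-231, where both constriction libraries lay above both control libraries, and -4.04 in MCF-10A, where both constriction libraries had 0 reads and lay below both control libraries. The MCF-10A value depends on the pseudocount, and the ratio is bounded as at least 4.60-fold lower, or 7.75 without control replicate 1 and 1.46 without control replicate 2. The difference between the cell lines was not tested, and neither was its cause.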

How the results depend on the processing

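Of 60 alternative values of these results, 49 kept their direction and differed from the reported one by less than the spread between libraries, or by a factor of at most 1.5 for counts. Of the others, 10 moved further and 1 reversed. The spread of PCDHGB7 and PCDHB2 is wide, so that 1.47 against 4.01 and -3.33 against -4.49 with TMM factors fell within it. PCDHB2 moved further in other settings, to -2.31 with a pseudocount of 10 and to -2.66 without control replicate 1.

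The number of adhesion genes called was 36. It was 13 with limma and a pseudocount of 10, which shrinks differences between low counts, where 68.7% of all listed genes were called. It was 20 of the 21 tested with a minimum mean of 10, where fewer genes were tested and 87.1% of them were called. With the replicate block it was 35, gaining CLDN4 and losing PCDHB10 and PCDHB2, beside 86.9% of all listed genes. With the crossed block, chosen after seeing the data, it was 32, beside 85.7%. With each library left out in turn it ranged from 20 to 37, where the lone library of a group was taken to vary like the others, and the cause was not tested. Without control replicate 1, and likewise without control replicate 2, the calls over all listed genes fell as well, so nothing is read from the fall among the adhesion genes. Once the 10 genes with unequal controls were left out, 26 of the 36 called genes were still counted, by construction. That exclusion was also chosen after seeing the data. In the remaining settings with all libraries the number lay between 33 and 38, where between 86.4% and 98.7% of all listed genes were called.

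The number with control libraries over 5-fold apart was 10 with a pseudocount of 1, 5 with one of 10, and 12 with none, chosen after seeing the data, as a larger constant shrinks ratios of low counts. The median log2 fold change was -4.40. It was -1.66 with a pseudocount of 10 and -2.58 with genes at 0 placed at their bound, which was chosen after seeing the data, and both follow from the construction. With each library left out it ranged from -4.78 to -3.20, and the cause was not tested. PCDHGB7, at 4.01, reversed to -0.063 without constriction replicate 1, reached 5.09 without control replicate 1, and the cause was not tested.

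The counts of genes lower after transit, at 0 reads and without overlap varied by at most 1 over their alternatives. TMM factors, from 0.191 to 8.69, were computed on the listed genes alone, of which 89.6% had 0 reads in both constriction libraries. With 2 libraries per group and 3 reads as the detection limit, the size of a fold beyond its lower bound could not be measured, and genes outside the table could not be examined.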
